A study of Mus musculus with 8 samples.

Results

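Integrins are receptors built from 1 alpha and 1 beta chain that hold cells to other cells and to the matrix. The 10 integrin chain genes described here, Itga1, Itga4, Itga5, Itga6, Itgal, Itgam, Itgax, Itgb1, Itgb2 and Itgb3, were taken by symbol from a table of 770 mouse genes. That rule uses no measured value, but the genes were chosen with earlier results of these data known. Total RNA of the nodes was read on a NanoString mouse panel of cancer immunity genes, an assay that counts barcoded probes bound to their target transcripts and needs no amplification. The nodes fall into 2 groups by their titles. In 4 of them, labelled tumor-bearing, Eµ-myc lymphoma cells had spread to the node through the lymphatic vessels, and the other 4 are labelled tumor-free. In Eµ-myc mice an immunoglobulin enhancer drives a Myc transgene in B cells, which form the lymphoma, and the series title names the inguinal node and diffuse large B cell lymphoma. The labels used here give no strain, age, sex or time after transfer, and do not tie the numbered nodes to animals. The spread behind each p-value is therefore that among these 8 samples and could be technical.

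The beta chain decides the family. Itgb2 pairs with Itgal to form LFA-1, the lymphocyte receptor for ICAM ligands, with Itgam to form Mac-1, a phagocyte receptor for complement fragments, and with Itgax to form the receptor used as a dendritic cell marker. Itgb1 pairs with Itga4, Itga5, Itga6 and Itga1 to form receptors for VCAM1, fibronectin, laminin and collagen, while Itgb3 pairs with Itgav or, on platelets, with Itga2b. In a lymph node, LFA-1 and Itga4 integrins help lymphocytes stop on and cross the high endothelial venules.

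The deposited values are counts that the authors scaled, and they corresponded to 659771 to 819257 whole counts per library. Myc, read first as a check of the labels, lay between 2996 and 3281 in the libraries labelled tumor-bearing and between 9249.5 and 33147 in those labelled tumor-free (limma log2 difference -2.88, SE 0.38, adjusted p = 0.00987). A Myc-driven lymphoma would give the opposite order, so the groups are named as labelled throughout, and every signed difference below would turn round were the labels swapped. The library labelled tumor-free replicate 3 stood apart from its group. Over the 609 genes kept for testing its Pearson r was 0.967 to 0.983 with the 4 libraries labelled tumor-bearing and 0.873 to 0.952 with the other 3 labelled tumor-free. The others labelled tumor-free had r from 0.824 to 0.927 with those labelled tumor-bearing, whose r among themselves was 0.981 to 0.993. Values without replicate 3 are given beside those with it for the 10 integrin genes and for some of the other genes and lists. Its removal also moved results given for all libraries only: Myc from -2.88 to -3.32, Thy1 from 1.70 to 2.20, Lck from 1.60 to 2.06, Glycam1 from 1.59 to 2.05 and Cxcr4 from -1.03 to -1.26. The reference genes called lower went from 8 to 12 of 20, beside 10.7% and 15.3% of the 609 kept genes. Those called higher went from 0 to 1, beside 27.6% and 43.3%. As for the labelled tissue, T cell markers such as Cd3e (477.0 or more) and B cell markers such as Cd79b (4957 or more) were read in every library.

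Of the 10 integrin genes, all of which passed the filter of a value of 20 or more in at least 4 libraries, 4 rose in the nodes labelled tumor-bearing at a limma adjusted p under 0.05: Itgb3, Itgal, Itgb2 and Itga4. None fell in that test, with 0 falls also at an unadjusted p under 0.05. On the whole counts, which they scale by their own factors, edgeR and DESeq2 each called 3 lower, Itgam, Itga5 and Itgb1. Over all genes kept, 27.6% were called higher and 10.7% lower, so 4 of 10 is not far above the panel's share. The median log2 difference of the 10 genes was 0.53, against 0.36 over all genes kept. The values of Itgb3, Itgal, Itgb2, Itga6 and Itgax in the libraries labelled tumor-bearing all lay above those labelled tumor-free, and those of Itgam all lay below, where 21.7% and 10.2% of kept genes were apart in these directions. Without the library labelled tumor-free replicate 3, 6 genes were called higher, with Itga6 and Itgax added, and 1 lower, Itga5, beside 43.3% and 15.3% of kept genes. The count of rises was 3 without labelled tumor-free replicate 4 and 0 without any 1 of the other 6 libraries, while in those 6 fits the log2 differences stayed at 1.37 to 1.52 for Itgal, 0.95 to 1.07 for Itgb2 and 1.58 to 1.73 for Itgb3, with limma adjusted p from 0.0536 to 0.0816. Beside the counts stands a shift of the whole panel: 8 of 20 reference genes were called lower (median log2 difference -0.51), scaling each library on the reference genes moved the median of all kept genes to 0.91, and scaling to the same median moved it to -0.17.

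**Figure D1:**
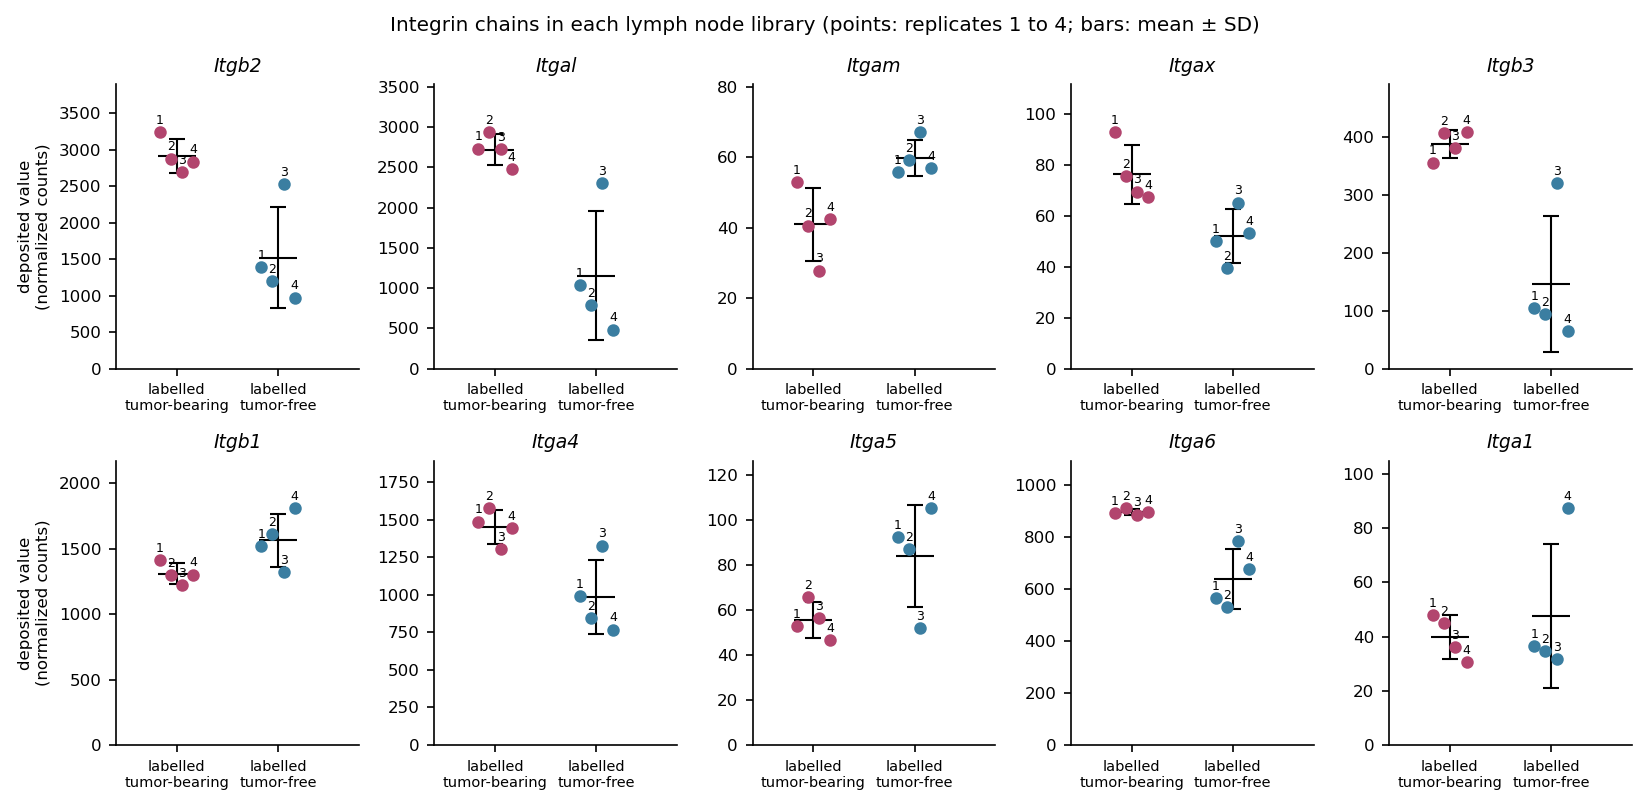
Deposited values (normalized counts, axes from 0) of the 10 integrin genes in each library, labelled tumor-bearing at left and labelled tumor-free at right, with points numbered by replicate and bars for mean ± SD. Labelled tumor-free replicate 3 lies near the libraries labelled tumor-bearing for Itgb2, Itgal, Itgb3, Itga4 and Itga5, and replicate 4 is high for Itga1.

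**Figure D2:**
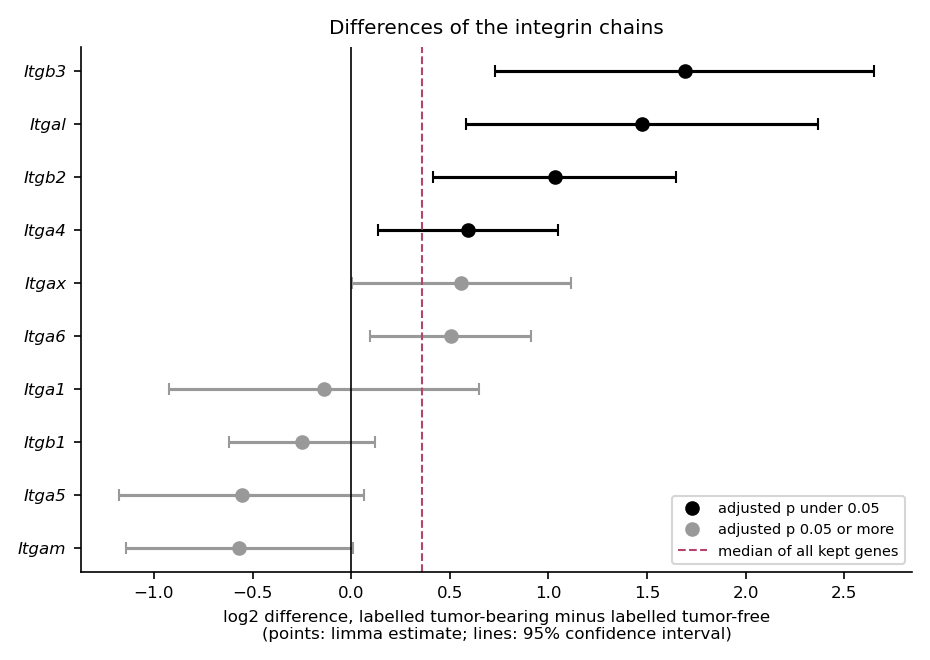
Log2 difference of each integrin gene, labelled tumor-bearing minus labelled tumor-free, with its 95% confidence interval from limma, in black where the adjusted p is under 0.05. The dashed line marks the median of all kept genes at 0.36, and Itgb3, Itgal and Itgb2 have intervals wholly above it.

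Itgb2, the shared beta chain of the leukocyte integrins, stood at 3246, 2879, 2692 and 2838 in replicates 1 to 4 labelled tumor-bearing, against 1386, 1201, 2529 and 970.2 in those labelled tumor-free. The means were 2914 ± 236 in nodes labelled tumor-bearing and 1521 ± 693 in those labelled tumor-free (SD, n = 4 each). The groups did not overlap, but labelled tumor-free replicate 3 came close to the other group. Itgb2 rose by 1.03 on the log2 scale (SE 0.28, adjusted p = 0.0253), and by 1.31 without that replicate (adjusted p = 0.000212). Itgal, the alpha chain of LFA-1, was at 2734, 2943, 2725 and 2479 in the nodes labelled tumor-bearing, and at 1035, 786.4, 2308 and 483.7 in those labelled tumor-free. Its highest value in the libraries labelled tumor-bearing was 1.19 times its lowest, and in those labelled tumor-free 4.77 times. Itgal rose by 1.47 (SE 0.40, adjusted p = 0.0254), and by 1.89 without labelled tumor-free replicate 3 (adjusted p = 0.000247). Both genes remained higher, with adjusted p under 0.05, under the 4 other scalings, in edgeR and in DESeq2.

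Itgam, the alpha chain of Mac-1 on macrophages, monocytes and neutrophils, had 53.0, 40.6, 27.8 and 42.4 in the nodes labelled tumor-bearing, against 55.8, 59.2, 67.3 and 56.9 in those labelled tumor-free. All 4 values of the first group lay below the second, and here replicate 3 of the nodes labelled tumor-free was the highest of its group. The log2 difference was -0.57 (95% confidence interval -1.14 to 0.01, adjusted p = 0.0952) and did not pass the test in the deposited values. It was -0.91 with edgeR (adjusted p = 0.012), -0.95 with DESeq2 (adjusted p = 0.000673), -1.10 with the same median (adjusted p = 0.0159), -0.03 after reference-gene scaling (adjusted p = 0.925) and -0.51 without labelled tumor-free replicate 3 (adjusted p = 0.124). The gene rested on 30 to 72 counts per library. Itgax, the alpha chain known as a dendritic cell marker, had 93.1, 75.7, 69.5 and 67.4 in the nodes labelled tumor-bearing, against 50.0, 39.4, 65.2 and 53.1 in those labelled tumor-free. The groups were apart by a small gap, and the log2 difference of 0.56 (SE 0.25, adjusted p = 0.0913) did not pass the test with all libraries. Without labelled tumor-free replicate 3 Itgax rose by 0.67 (adjusted p = 0.0351), and after reference-gene scaling by 1.09 (adjusted p = 0.0144). The difference was 0.02 with the same median (adjusted p = 0.943), 0.22 in edgeR (adjusted p = 0.277) and 0.20 in DESeq2 (adjusted p = 0.4). Within a library Itgax was 1.76, 1.86, 2.50 and 1.59 times Itgam in the nodes labelled tumor-bearing, against 0.897, 0.667, 0.970 and 0.933 times in those labelled tumor-free, a ratio of probe counts whose order between groups is given as a description.

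Itgam and Itgax are neighbours on chromosome 7 in the RefSeq gene order, with no other protein-coding gene between their starts, and their values lay on opposite sides of the other group. For that reason the 250 bases before their annotated starts are shown, from RefSeq on build GRCm38.p6, plus strand, 5′ to 3′. They span chr7:128062390-128062639 for Itgam and chr7:128129300-128129549 for Itgax, and those of Itga4 and Itgb1, the chains of the VCAM1 receptor, shown because their ratio lay apart between the groups, span chr2:79255176-79255425 and chr8:128685404-128685653. Capitals mark matches on either strand to 3 letter strings: GAGGAA, the core bound by PU.1-type factors, GGGCGG, a GC box, and TGTGGT, a RUNX-type core.
Itgam: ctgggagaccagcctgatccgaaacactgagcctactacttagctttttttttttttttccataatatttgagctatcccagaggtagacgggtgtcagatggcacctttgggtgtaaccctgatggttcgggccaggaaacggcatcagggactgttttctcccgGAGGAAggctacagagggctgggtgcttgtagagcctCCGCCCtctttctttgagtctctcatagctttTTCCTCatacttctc
Itgax: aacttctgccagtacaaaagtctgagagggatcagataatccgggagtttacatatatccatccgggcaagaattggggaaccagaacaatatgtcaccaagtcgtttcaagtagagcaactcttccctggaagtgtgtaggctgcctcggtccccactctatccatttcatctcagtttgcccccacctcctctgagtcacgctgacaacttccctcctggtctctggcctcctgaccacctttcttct
Itga4: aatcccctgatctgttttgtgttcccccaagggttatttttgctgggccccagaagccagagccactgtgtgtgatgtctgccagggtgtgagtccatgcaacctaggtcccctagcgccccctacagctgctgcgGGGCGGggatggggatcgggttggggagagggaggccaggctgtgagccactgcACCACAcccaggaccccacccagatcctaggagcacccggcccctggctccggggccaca
Itgb1: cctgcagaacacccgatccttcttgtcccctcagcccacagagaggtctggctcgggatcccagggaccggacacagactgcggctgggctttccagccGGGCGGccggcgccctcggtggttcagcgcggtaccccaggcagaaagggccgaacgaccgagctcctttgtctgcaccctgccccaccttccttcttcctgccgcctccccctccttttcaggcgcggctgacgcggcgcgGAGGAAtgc
The Itgam stretch held GAGGAA at 2 places and the GC box at 1 place, and the Itgax stretch held no match to these letters. Itga4 had 1 GC box and 1 RUNX-type match, and Itgb1 had 1 GC box and 1 GAGGAA. Of 32851 promoter stretches of the same length, 23.3% held GAGGAA, 32.7% GGGCGG and 14.0% TGTGGT, and no 2 matches overlapped in the 4 stretches. Promoter entries were found for 6 of the 10 genes: these 4, Itga1 and Itga5.

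Itgb3, the beta chain of the vitronectin receptor and of the platelet fibrinogen receptor, differed most among the 10 genes. It was at 355.5, 406.1, 380.8 and 408.7 in the nodes labelled tumor-bearing, against 103.9, 93.7, 320.1 and 64.5 in those labelled tumor-free. Labelled tumor-free replicate 3 had 3.66 times the mean of the other 3 of its group (87.4 ± 20.5, SD, n = 3) but stayed below the lowest library labelled tumor-bearing. Itgb3 rose by 1.69 (SE 0.43, adjusted p = 0.0251), by 2.16 without that replicate (adjusted p = 0.000109), and by 1.15 to 2.23 under the 4 other scalings, all with adjusted p under 0.05. Its platelet partner Itga2b stayed low, at 27.2, 22.0, 23.2 and 12.0 in the nodes labelled tumor-bearing and 7.7, 9.0, 22.4 and 10.4 in those labelled tumor-free, on 8 to 25 counts per library. The log2 difference of Itga2b was 0.78 (SE 0.37, adjusted p = 0.111), or 1.09 without labelled tumor-free replicate 3 (adjusted p = 0.0143), and the platelet chemokine Ppbp lay below the filter. Its other partner, Itgav, was not analysed here.

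Of the Itgb1 family, Itga4 was the 1 chain called in the deposited values. Itga4, the alpha chain of the VCAM1 receptor on lymphocytes, was at 1488, 1576, 1303 and 1446 in the nodes labelled tumor-bearing, against 992.8, 844.7, 1327 and 769.1 in those labelled tumor-free. The groups overlapped through labelled tumor-free replicate 3 alone. Itga4 rose by 0.59 (SE 0.20, adjusted p = 0.0442), and by 0.75 without that replicate (adjusted p = 0.00207), but its call was lost under the same median (0.05, adjusted p = 0.82), quantile normalization (0.29, adjusted p = 0.0961), the same total (0.45, adjusted p = 0.0527), edgeR (0.26, adjusted p = 0.16) and DESeq2 (0.23, adjusted p = 0.17). Relative to the median of all kept genes its difference was 0.23. Itga6, an alpha chain of laminin receptors, was nearly level in the nodes labelled tumor-bearing, at 889.4, 908.8, 884.0 and 893.4, against 563.8, 530.0, 781.8 and 674.3 in those labelled tumor-free. All 4 values labelled tumor-bearing were above the other group, and the limma log2 difference of 0.50 (SE 0.18) was not called (adjusted p = 0.0508). It was 1.05 after reference-gene scaling (adjusted p = 0.0144) and turned to -0.04 with the same median (adjusted p = 0.887). The difference was 0.17 in edgeR (adjusted p = 0.439) and 0.14 in DESeq2 (adjusted p = 0.557). Without labelled tumor-free replicate 3 Itga6 rose by 0.61 (adjusted p = 0.00529).

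Itgb1, the common beta chain of these receptors, had values of 1414, 1297, 1222 and 1302 in the nodes labelled tumor-bearing, against 1517, 1613, 1322 and 1808 in those labelled tumor-free. The groups overlapped in labelled tumor-free replicate 3, and the log2 difference was -0.25 (95% confidence interval -0.62 to 0.12, adjusted p = 0.237). It was -0.62 with edgeR (adjusted p = 0.0468), -0.67 with DESeq2 (adjusted p = 0.0221), -0.33 without labelled tumor-free replicate 3 (adjusted p = 0.0556), and turned to 0.29 after reference-gene scaling (adjusted p = 0.115). Itga5, the alpha chain of the fibronectin receptor, had 53.0, 65.9, 56.5 and 46.7 in the nodes labelled tumor-bearing, against 92.4, 87.1, 52.0 and 105.3 in those labelled tumor-free. Only replicate 3 of the nodes labelled tumor-free lay within the range of the other group. The log2 difference of -0.56 (SE 0.28, adjusted p = 0.126) did not pass the test with all libraries. Without that replicate Itga5 fell by 0.77 (adjusted p = 0.016), and it fell by 0.98 with edgeR (adjusted p = 0.0387), by 1.02 with DESeq2 (adjusted p = 0.0125) and by 1.09 with the same median (adjusted p = 0.0484). Itga5 was not called with the same total (-0.70, adjusted p = 0.0701), with quantile normalization (-0.71, adjusted p = 0.115) or after reference-gene scaling (-0.02, adjusted p = 0.951).

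Itga1, the alpha chain of a collagen receptor on stromal cells and some T cells, was low, at 47.8, 45.0, 36.1 and 30.4 in the nodes labelled tumor-bearing and 36.6, 34.5, 31.6 and 87.3 in those labelled tumor-free. Labelled tumor-free replicate 4 was high and the other libraries overlapped. The log2 difference was -0.14 (SE 0.35, adjusted p = 0.751). It was -0.28 without replicate 3 of that group (adjusted p = 0.507), and turned to 0.19 without replicate 4 (adjusted p = 0.59) and to 0.40 after reference-gene scaling (adjusted p = 0.242). In labelled tumor-free replicate 4 the collagens Col1a1 and Col3a1 were at 234.2 and 208.6, against a range of 17.3 to 53.9 and 15.3 to 52.0 in the other 7 libraries, and Lyve1, a lymphatic endothelial marker, was at 71.1, against 9.3 to 33.7. The endothelial markers Cdh5, Tie1 and Cd34 were also highest in that library, at 67.3, 60.7 and 86.3. Other markers of these lists were not. Pdgfrb (14.2), Kdr (54.1), Tek (10.4) and Pecam1 (1254) lay within the range of the other libraries there, and Vwf (10.4) was lowest there. Of these, Pdgfrb, Tek and Vwf lay below the filter. The part of stromal content in the Itga1 value was not tested.

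The count of integrin genes called moved with the scaling, and so did that of the panel. After reference-gene scaling 6 of 10 were higher and 0 lower, where 59.6% and 6.24% of kept genes were called. With the same median 3 were higher and 2 lower (panel 18.9% and 24.8%), with the same total 3 and 1 (30.7% and 17.9%), and with quantile normalization 3 and 1 (29.2% and 19.9%). The 3 higher and 3 lower of edgeR stood beside 19.2% and 23.5%, and those of DESeq2 beside 25.8% and 29.7%. Itgal, Itgb2 and Itgb3 were the 3 called higher in each of these. With a pseudocount of 0.5 the integrin counts and the panel shares (27.6% and 10.7%) were as in the deposited fit, and a pseudocount of 8 gave 4 and 0 (27.9% and 10.8%). The counts were 3 and 0 with no filter (21.0% and 8.31%), with no trend (29.1% and 10.8%) and with a replicate block (28.4% and 10.7%), and 5 and 0 of the 6 genes left by a filter at 100 (36.6% and 10.8%). Leaving out labelled tumor-free replicate 3 raised the panel shares, as given above, and leaving out any other library lowered them. Without labelled tumor-free replicate 4 they were 14.6% and 8.54%, without replicate 1 of that group 0.821% and 3.28%, and without replicate 2 0% and 0.821%. Without labelled tumor-bearing replicate 1 the shares were 1.81% and 8.05%, without replicate 2 0.164% and 1.81%, without replicate 3 0% and 0%, and without replicate 4 0.164% and 0.821%.

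**Figure D3:**
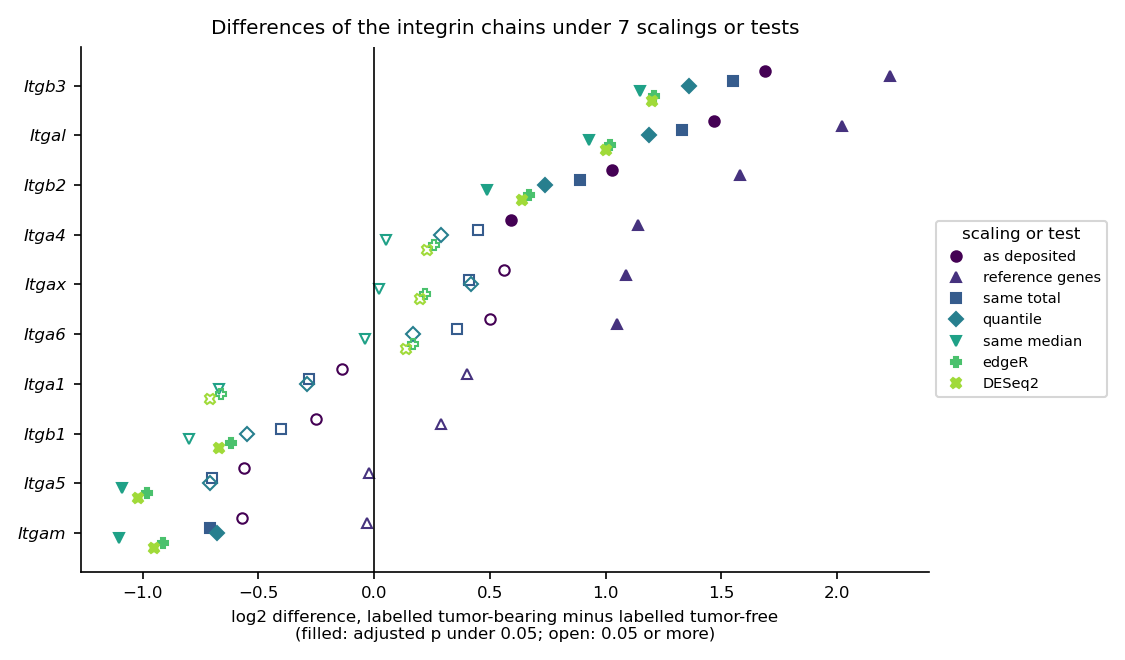
Log2 difference (labelled tumor-bearing minus labelled tumor-free) of the 10 integrin genes in the deposited values, under 4 other scalings and with edgeR and DESeq2 on whole counts, filled where the adjusted p is under 0.05. Itgb3, Itgal and Itgb2 are filled and above 0 in each of the 7, while the sign of Itga6, Itga1 and Itgb1 differs between scalings.

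Within a library, the ratio of 2 genes does not move with the scaling factor. The level of each alpha chain gene relative to its beta chain gene was therefore compared for 7 known pairs as a log2 ratio. In bulk nodes this is a ratio of probe counts, not of paired chains, and the 2 genes may be read from different cells, which was not tested. The exact two-sided permutation test over 4 against 4 libraries has 70 arrangements and a smallest p of 0.0286, which after adjustment over the 7 pairs could not fall under the threshold unless 5 or more pairs reached it. The log2 ratio of Itgam to Itgb2 was -5.91, -6.11, -6.55 and -6.03 in the nodes labelled tumor-bearing, against -4.61, -4.32, -5.21 and -4.07 in those labelled tumor-free. All 4 were lower, with a difference of -1.60 (exact permutation p = 0.0286, the smallest possible, adjusted p = 0.0667). Itga4 to Itgb1 had 0.07, 0.28, 0.09 and 0.15 in the nodes labelled tumor-bearing, against -0.61, -0.93, 0.01 and -1.23 in those labelled tumor-free. Here all 4 were higher, by 0.84 on average (exact permutation p = 0.0286, adjusted p = 0.0667). Itga6 to Itgb1 was also higher in all 4 nodes labelled tumor-bearing, by 0.75, at the same exact permutation p and adjusted p.

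The other 4 pairs overlapped between groups. Itgal to Itgb2 averaged -0.10 ± 0.14 in the nodes labelled tumor-bearing and -0.54 ± 0.36 in those labelled tumor-free (SD, n = 4 each; exact permutation p = 0.0857, adjusted p = 0.12). The ratio of Itgax to Itgb2 averaged -5.24 ± 0.11 and -4.77 ± 0.45 in these groups (SD, n = 4 each; exact permutation p = 0.0857, adjusted p = 0.12). Itga5 to Itgb1 differed by -0.31 (exact permutation p = 0.143, adjusted p = 0.167) and Itga1 to Itgb1 by 0.11 (exact permutation p = 0.8, adjusted p = 0.8). With all libraries no pair had an adjusted p under 0.0667. Without labelled tumor-free replicate 3, 5 of the 7 pairs had no overlap and an adjusted p of 0.04 in the exact permutation test. They were the 3 above, Itgal to Itgb2 at 0.58 and Itgax to Itgb2 at -0.63. That library was left out for its likeness to the other group in these same data, which favours such a separation. The share of other gene ratios that lie apart between groups was not computed, with or without it.

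**Figure D4:**
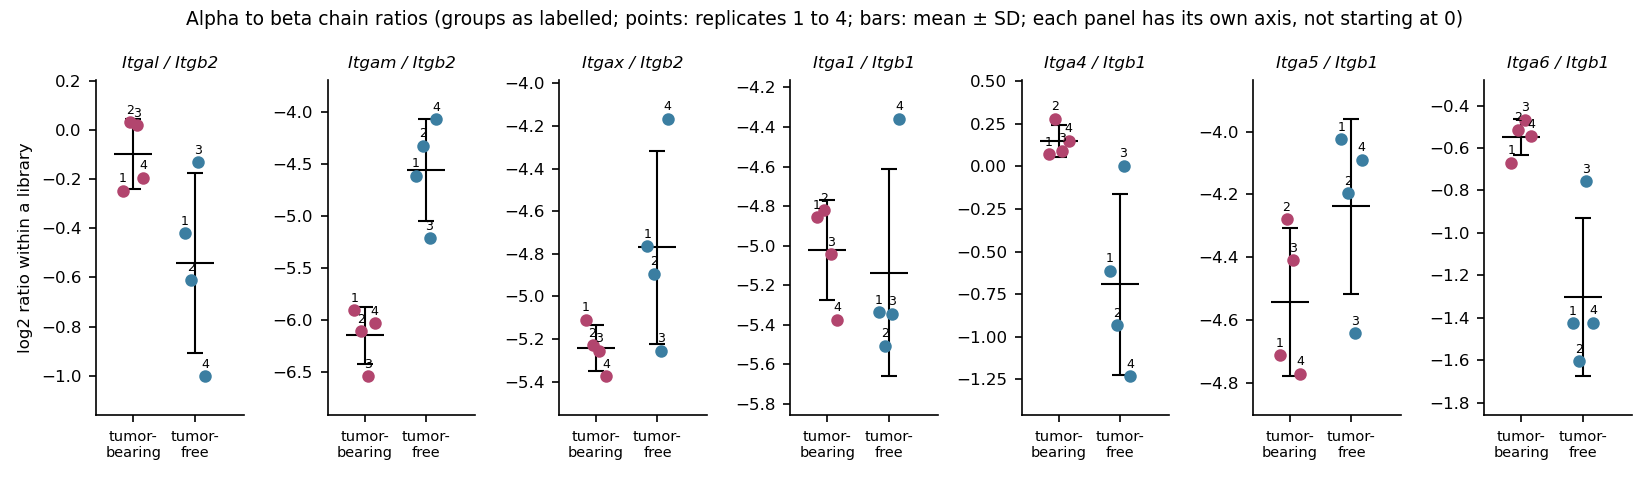
Log2 ratio of alpha to beta chain within each library for 7 pairs, labelled tumor-bearing at left and labelled tumor-free at right, with points numbered by replicate and bars for mean ± SD; axes differ between panels. Itgam to Itgb2 lies lower, and Itga4 and Itga6 to Itgb1 lie higher, in all 4 libraries labelled tumor-bearing.

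T cell markers were called in the same direction as Itgal, Itgb2, Itgb3 and Itga4. All 10 genes of the T cell list (such as Cd3e, Cd4 and Cd8a) were called higher, beside 27.6% of all kept genes. Their summed value ran from 27907 to 34988 in the libraries labelled tumor-bearing and from 4733 to 25007 in those labelled tumor-free, where the highest was replicate 3. The mean log2 level of that list differed by 1.66 between groups. Itgal relative to it was at 0.233 to 0.456 in the libraries labelled tumor-bearing and 0.458 to 0.581 in those labelled tumor-free. It was thus lower in every library labelled tumor-bearing, by a very narrow gap. The total range was 0.35 on the log2 scale, while the list itself spanned 2.76. For Itgb3 the same difference ran from -2.70 to -2.36 and from -2.76 to -2.39, so that the groups overlapped. Itgb2 relative to the T cell list was lower in every library labelled tumor-bearing, at 0.40 to 0.49, against 0.59 to 1.504 in those labelled tumor-free, and Itga4 likewise, at -0.64 to -0.47, against -0.34 to 1.17. Itgam, Itga1, Itga5 and Itgb1 had lower means in the nodes labelled tumor-bearing, opposite to the list, and did not pass the test in the deposited values. Other lists also had medians above the 0.36 of all kept genes. The 7 NK cell markers had a median log2 difference of 1.07 and sums of 3596 to 6904 in libraries labelled tumor-bearing and 772.9 to 3879 in those labelled tumor-free. Only 1 of them, Klrd1, was called higher (14.3%, below the panel's 27.6%). Without labelled tumor-free replicate 3 it was 6, beside 43.3% of kept genes. The dendritic cell list, given next, had a median of 1.00. The part of T, NK or dendritic cells in the integrin values was not tested, and in bulk nodes a change in the number of cells of a type and in the RNA of each cannot be told apart.

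**Figure D5:**
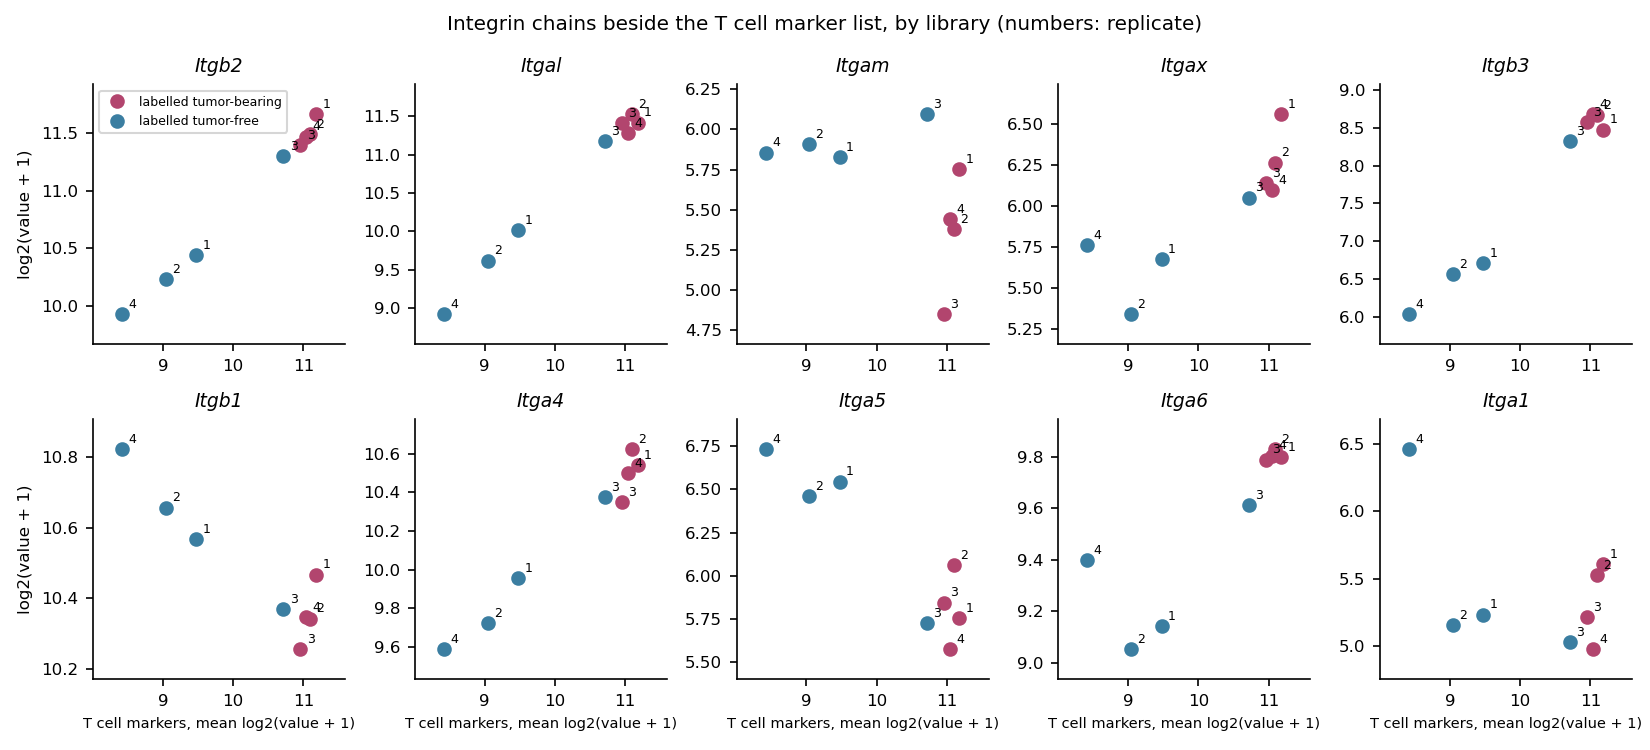
Level of each integrin gene, log2(value + 1), against the mean log2(value + 1) of the 10 T cell markers, by library, with points numbered by replicate. Libraries line up for Itgal, Itgb3, Itgb2 and Itga4, with labelled tumor-free replicate 3 beside the libraries labelled tumor-bearing, while Itgam does not follow the list.

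Beside Itgam stand the myeloid lists. The limma counts in this paragraph stand beside 27.6% of all kept genes called higher and 10.7% lower. Without labelled tumor-free replicate 3 these shares were 43.3% and 15.3%. Of 8 kept macrophage genes, 5 were called lower (Csf1r, Emr1, Marco, Msr1 and Fcgr1) and 0 higher, with 0 higher also unadjusted, in edgeR and in DESeq2. After reference-gene scaling 1 macrophage gene was called higher and 3 lower, beside 59.6% and 6.24% of kept genes. The summed value of the 9 measured was 638.0 to 1002 in the libraries labelled tumor-bearing and 1467 to 1623 in those labelled tumor-free, a gap that left replicate 3 with its labelled group. Of 5 kept neutrophil genes, 1 was called lower, Fpr2 (2 lower without labelled tumor-free replicate 3), and Mpo, Elane and Ltf lay below the filter. Of 4 dendritic cell genes beside Itgax, 2 were called higher (3 without labelled tumor-free replicate 3), Xcr1 and Ccl22, with summed values of 812.6 to 1273 in the libraries labelled tumor-bearing and 307.3 to 631.0 in those labelled tumor-free. The part of these cells in the Itgam and Itgax values was not tested. Of 9 B cell markers 2 were called higher and 1 lower, close to the panel's shares, and 3 and 1 without labelled tumor-free replicate 3. Their sums overlapped, at 15703 to 27921 in the libraries labelled tumor-bearing and 17678 to 21932 in those labelled tumor-free.

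Other integrin chains on the panel were Itgae, Itga2, Itga2b and Itgb4. Itgae, the alpha chain of the E-cadherin receptor on tissue-resident T cells and some dendritic cells, was at 998.0, 1073, 921.0 and 955.4 in the nodes labelled tumor-bearing, against 229.9, 175.9, 861.4 and 64.5 in those labelled tumor-free. Itgae rose by 2.17 (SE 0.62, limma adjusted p = 0.0265) and by 2.83 without labelled tumor-free replicate 3 (adjusted p = 0.000302), but the call was lost in edgeR (1.41, adjusted p = 0.0632). Its range in the second group was the widest of the integrin chains measured, with the highest value 13.4 times the lowest. Cdh1, its E-cadherin ligand, rose by 1.47 (SE 0.42, limma adjusted p = 0.0265). Itga2, an alpha chain of a collagen receptor, had 21.3 to 32.9 in the nodes labelled tumor-bearing and 12.3 to 22.4 in those labelled tumor-free (log2 difference 0.72, adjusted p = 0.0538, and 0.85 with adjusted p = 0.02 without labelled tumor-free replicate 3). Itgb4 lay below the filter, with 13.0 to 23.3 and 8.2 to 22.8 in these groups.

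Of 25 listed ligands of the integrins 15 were measured and 12 kept, of which 3 were called higher and 0 lower by limma (2 lower at an unadjusted p under 0.05), beside 27.6% and 10.7% of all kept genes. Their median log2 difference was -0.34, against 0.36 over all kept genes. The counts were 1 and 3 in edgeR, 2 and 6 in DESeq2 and 3 and 3 without labelled tumor-free replicate 3, beside panel shares of 19.2% and 23.5%, 25.8% and 29.7%, and 43.3% and 15.3%. The 3 were Thy1, a T cell surface protein that binds Itgam and Itgb3 integrins, at 1.70 (adjusted p = 0.0265), Cdh1 and the junctional molecule Jam3 at 0.65 (adjusted p = 0.0458). The call of Thy1 was lost in edgeR (1.14, adjusted p = 0.0551). That of Jam3 was lost in edgeR (0.33, adjusted p = 0.226), in DESeq2 (0.31, adjusted p = 0.421), with the same median (0.13, adjusted p = 0.717), with quantile normalization (0.41, adjusted p = 0.136) and with the same total (0.52, adjusted p = 0.0503). Vcam1, the ligand of the Itga4 receptor, was at 77.8 to 122.8 in the nodes labelled tumor-bearing and 97.9 to 359.4 in those labelled tumor-free (log2 difference -0.95, adjusted p = 0.0655). Vcam1 fell by 1.28 without labelled tumor-free replicate 3 (adjusted p = 0.00419), by 1.53 in edgeR (adjusted p = 0.0288) and by 1.58 in DESeq2 (adjusted p = 0.00241), and it was called with the replicate block (-0.95, adjusted p = 0.0447). Vcam1 was not called with quantile normalization (-1.26, adjusted p = 0.0532), after reference-gene scaling (-0.41, adjusted p = 0.232) or without labelled tumor-free replicate 4 (-0.65, adjusted p = 0.145). Fn1, fibronectin, the ligand of the Itga5 receptor, had 30.4 to 51.7 and 55.0 to 155.5 in these groups, with no overlap (log2 difference -0.96, adjusted p = 0.0606). Fn1 fell by 1.10 without labelled tumor-free replicate 3 (adjusted p = 0.0314), by 1.52 in edgeR (adjusted p = 0.0286) and by 1.57 in DESeq2 (adjusted p = 0.00274). Fn1 was not called after reference-gene scaling (-0.42, adjusted p = 0.234) or without labelled tumor-free replicate 4 (-0.61, adjusted p = 0.127). Icam1, the ligand of LFA-1 and Mac-1, had a log2 difference of 0.35 (adjusted p = 0.241) that was below 0 in DESeq2, after quantile normalization and when medians were made equal.

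Genes of integrin activation and signalling, mostly kinases that act below integrins and antigen receptors, were called in both directions. Of 13 kept genes, 5 were called higher, among them Lck at 1.60 (SE 0.42, adjusted p = 0.0251) and Zap70 at 1.52, kinases of T cells, and also Fyn at 1.14 and Pik3cd at 0.83. The 2 called lower were Syk at -0.998 (SE 0.22, adjusted p = 0.0195) and Btk at -0.94, which act in B cells and myeloid cells. These 5 and 2 of 13 stood beside 27.6% and 10.7% of all kept genes. With edgeR 5 were higher and 4 lower (panel 19.2% and 23.5%), after reference-gene scaling 7 and 1 (59.6% and 6.24%), near the panel's shares, and without labelled tumor-free replicate 3 6 and 3 (43.3% and 15.3%). The counts were 5 and 5 in DESeq2 (25.8% and 29.7%) and 4 and 6 when medians were made equal (18.9% and 24.8%). Btk was not called after reference-gene scaling (-0.39, adjusted p = 0.0929), nor Pik3cd when medians were made equal (0.28, adjusted p = 0.134). Of 11 kept partners in homing, 5 were called higher and 1 lower, beside the same 27.6% and 10.7%. Without labelled tumor-free replicate 3 they were also 5 and 1, beside 43.3% and 15.3%, near the panel's shares. Glycam1, a mucin made by high endothelial venules, rose by 1.59 (adjusted p = 0.0265) and Ccr7, the chemokine receptor for entry into the node, by 0.95 (adjusted p = 0.0265), while Cxcr4, the receptor for Cxcl12, fell by 1.03 (SE 0.27, adjusted p = 0.0251). Cxcr4 values were 1063 to 1262 in nodes labelled tumor-bearing and 1473 to 3837 in those labelled tumor-free. The other 3 called higher were Selplg at 0.83, the venule chemokine Ccl21a at 0.77 and Pecam1, an endothelial and leukocyte adhesion molecule, at 0.66. The homing counts were 8 and 0 after reference-gene scaling (panel 59.6% and 6.24%), and 2 and 1 both in edgeR (19.2% and 23.5%) and when medians were made equal (18.9% and 24.8%). In edgeR the calls of Glycam1 (1.12, adjusted p = 0.0502), Pecam1 (0.32, adjusted p = 0.055) and Ccl21a (0.40, adjusted p = 0.134) were lost, and Cxcr4 was not called after reference-gene scaling (-0.49, adjusted p = 0.0623).

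The 2 kept genes most like each integrin gene, by Pearson r of log2(value + 1) over the 8 libraries and leaving out integrins, are given as a description, since libraries of 1 group share their label. Nearest to Itgal were Zap70, a T cell receptor kinase, and the early growth response factor Egr3 (r = 0.998 each), and nearest to Itgb2 were the T cell kinase Txk (r = 0.998) and Pik3cd (r = 0.997). Itgb3 lay nearest to the transcription factors Runx1 (r = 0.998) and Egr1 (r = 0.997), and Itga4 to lymphotoxin alpha, Lta, and the NF-kappaB subunit Rel (r = 0.992 each). Itgb1 was most like Vcam1 (r = 0.992) and Tmed1 (r = 0.974), Itga5 like Raet1 (r = 0.955) and Gfi1 (r = 0.950), and Itga1 like Col3a1 (r = 0.910) and Col1a1 (r = 0.904). Itga6 came closest to Prdm1 (r = 0.976) and Inpp5d (r = 0.958), and Itgax to Havcr2 (r = 0.974) and Cd48 (r = 0.971). The nearest to Itgam, Alas1 (r = 0.898) and Klra2 (r = 0.889), were the least like of all.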

How the data were processed

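The values are the authors' deposited count signal of the NanoString panel on a linear scale, scaled with 1 factor per library. The panel is named in the series design text. For software, background handling and the basis of the scaling, the entry is not given in sources used here. Dividing each library by its own factor (0.822 to 1.29) left 100% of values whole to within 0.01 of a count, and these whole counts were used for the count tests. The lowest values corresponded to 1 to 3 counts.

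The test was limma 3.58.1 (R 4.3.3; a two-sided moderated test with an intensity trend) on log2(value + 1) of the 609 of 770 genes with a value of 20 or more in at least 4 of 8 samples, group as the only term, Benjamini-Hochberg over all 609, threshold 0.05. Fold changes on this scale understate the change of low genes. Alternatives were 4 other scalings, pseudocounts of 0.5 and 8, no filter and a filter at 100, no trend and blocking on the replicate number. Each library was also left out, and the whole counts were tested in edgeR 4.0.16 (quasi-likelihood) or in DESeq2 1.42.0. These 2 tools set their own library factors in place of the authors' scaling. The median log2 difference of all kept genes was 0.03 in edgeR and -0.004 in DESeq2, so their calls differ from limma's in scaling as well as in test. Tested on counts simulated for the 609 genes, limma found 100% of 4-fold changes, 58.5% of 2-fold and 10.8% of 1.5-fold ones, with 0.733% of unchanged genes called. The simulation used 1 spread for all genes and both groups, and the known library factors. It held no library apart from its group and no shift of the panel, so these shares need not hold for the real libraries.

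All 10 integrin genes are named, with every other integrin chain, the 3 largest called changes of each pathway list (1 of these is not reported here), and the 2 most alike genes of each member. Fyn, Pik3cd, Syk, Btk, Selplg, Pecam1, Ccl21a, Fn1, Icam1 and, for its level, Vcam1 were named after their values were seen. The members and lists were chosen with earlier results of these data known. Promoter letters come from RefSeq, GRCm38.p6.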

Additional observations from a re-analysis of the deposited data

Results flagged for a closer look

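The 10 genes and 7 ratios were checked in each label, 34 groups of 4 libraries in all, and 1 library lay far from the other 3 in 2 of them, where chance gives about 1 in 20. Both concern labelled tumor-free replicate 4. Its Itga1 value of 87.3 was far above the 31.6 to 36.6 of the others labelled tumor-free, and its log2 ratio of Itga1 to Itgb1 was -4.36, against -5.51 to -5.34.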

How the results depend on the processing

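The numbers of integrin genes called higher and lower were 4 and 0 in the deposited values, and the rises stayed between 3 and 6 in all 12 settings that keep every library. The falls were 2 with the same median, 1 each with the same total and with quantiles, and 3 each with edgeR and DESeq2. Leaving out 1 library gave 0 to 6 rises and 0 to 1 falls. Panel genes called higher and lower were 168 and 65, and 363 and 38 after reference-gene scaling, 115 and 151 with the same median, 187 and 109 with the same total, 178 and 121 with quantiles, 117 and 143 in edgeR, 157 and 181 in DESeq2, and 0 to 264 and 0 to 93 without 1 library. The replicate block gave 3 rises and 0 falls, since Itga4 lost its call (0.59, adjusted p = 0.0932). Deviations of same-numbered libraries from their group means had r of 0.55, 0.03, 0.01 and -0.04, so the numbers were not taken as pairs.

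Direction turned for Itga1 (0.40 after reference-gene scaling, and -0.28 to 0.19 over the fits without 1 library, the highest being without labelled tumor-free replicate 4), Itga6 (-0.04 with the same median), Itgb1 (0.29 after reference-gene scaling) and Icam1 (-0.19 with the same median, -0.13 with quantiles, -0.02 with DESeq2), each of these not called. The likeness of Itgb1 to Vcam1 and Tmed1 turned to r of -0.67 and -0.84 after reference-gene scaling, and that of Itga4 to Lta to -0.04 with the same median, settings chosen after seeing the data. Leaving out 1 library, the differences in log2 ratio ran from 0.29 to 0.58 for Itgal to Itgb2, -1.82 to -1.44 for Itgam to Itgb2, -0.63 to -0.27 for Itgax to Itgb2, -0.01 to 0.37 for Itga1 to Itgb1, 0.66 to 1.07 for Itga4 to Itgb1, -0.44 to -0.23 for Itga5 to Itgb1 and 0.65 to 0.94 for Itga6 to Itgb1. The cause of these shifts was not tested. Itgam, Itgax, Itga1 and Itga5 rest on 28 to 111 counts per library, of which the part from background is not known.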
